A study of Mus musculus with 4 samples.

Results

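The 10 genes described here mark blood and lymphatic vessels or act in their growth, and they were picked by symbol from the 44788 gene rows of a count table of mouse colon. Pecam1, Cdh5, Vwf and Plvap mark blood vessel endothelium, Lyve1 marks lymphatic endothelium, Kdr and Tek are receptors, Angpt2 and Apln are ligands, and Esm1 is a secreted proteoglycan. All 10 had counts in every library. RNA was sequenced from the colon of C57BL/6 mice that were wild type (WT) or labelled Card9-/-, each without treatment or after AOM/DSS, with 1 library for each of the 4 groups. AOM/DSS brings about colon tumours on inflamed mucosa, by a single dose of the carcinogen azoxymethane (AOM) and then dextran sulfate sodium (DSS), which injures the gut lining. Treated mice of both genotype labels were given AOM at 10 mg/kg on day 1, then 3 cycles of 2% DSS (36 to 50 kDa) of 7 days each from 5 days later, and were collected on day 100. Untreated colon is labelled day 0, so effects of the treatment and of the date of collection cannot be told apart. The sources used here do not give how the Card9 allele was made, nor whether a library holds 1 mouse or a pool.

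Endothelial cells line every vessel and hold each other through the adhesion proteins PECAM-1 and VE-cadherin. New blood vessels sprout when VEGF reaches its receptor VEGFR2 on the endothelium, while the receptor TIE2, held active by ANGPT1 from the cells around the vessel, keeps resting vessels stable. ANGPT2, which endothelium releases in inflammation and remodelling, competes at TIE2, and vessels of inflamed gut also display adhesion molecules that let leukocytes leave the blood.

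Library totals ran from 23022885 to 27706567 counts. Card9 went against its label, since it was at 1.75 CPM (counts scaled to the library total) in untreated WT against 3.18 CPM in the untreated sample labelled Card9-/-, and at 5.32 against 7.73 CPM with AOM/DSS. Those samples are therefore named by their label, as libraries labelled knockout, and directions between genotypes rest on it. Set apart from the rest was the AOM/DSS library labelled knockout, whose correlation with the others across 16383 genes (log2 values) was 0.827 to 0.855. The others correlated with each other at 0.942 to 0.954. Genes that define colon epithelium were low there but not at 0: Cdx2 was at 16.9 CPM against 143.2 to 279.2 elsewhere, Car1 at 28.4 against 857.3 to 7654, and Slc26a3 at 7.17 against 134.0 to 674.2. A list of 6 smooth muscle genes summed to 1158 CPM against 6096 to 8211. The summed level of 6 leukocyte genes was 183.7 CPM in untreated WT, 326.5 in the untreated library labelled knockout, 418.4 in WT AOM/DSS and 655.1 in the AOM/DSS library labelled knockout, and 6 fat cell genes summed to 238.9, 25.3, 101.2 and 8.96 CPM in the same order. The sum of 6 epithelial genes was 8272 to 12044 CPM. The part of these shifts in the vessel gene results was not tested.

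The 2 genes that every endothelial cell uses in its junctions differed least over the 4 libraries, and Angpt2 and Esm1 differed most. Values are CPM scaled by TMM, a method that corrects library totals for differences in composition. The ratio of the highest to the lowest library was 1.13 for Cdh5, 1.33 for Pecam1, 1.77 for Vwf, 1.78 for Kdr and 1.90 for Plvap, all under 2-fold. It was 2.12 for Apln, 2.81 for Tek, 3.56 for Lyve1, 6.38 for Esm1 and 6.73 for Angpt2. Across genes, levels were compared as CPM per kb of annotated exon, averaged over the 4 libraries. On that scale Plvap was the most abundant member at 41.3, followed by Pecam1 (10.9), Cdh5 (7.90), Lyve1 (5.83), Vwf (4.59), Kdr (4.29), Angpt2 (3.39), Tek (3.20), Esm1 (1.19) and Apln (0.866). With 1 library per group, the order of close neighbours such as Vwf and Kdr, or Angpt2 and Tek, has no replicate check. In bulk tissue, fewer cells of a type and less RNA per cell cannot be told apart.

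**Figure D1:**
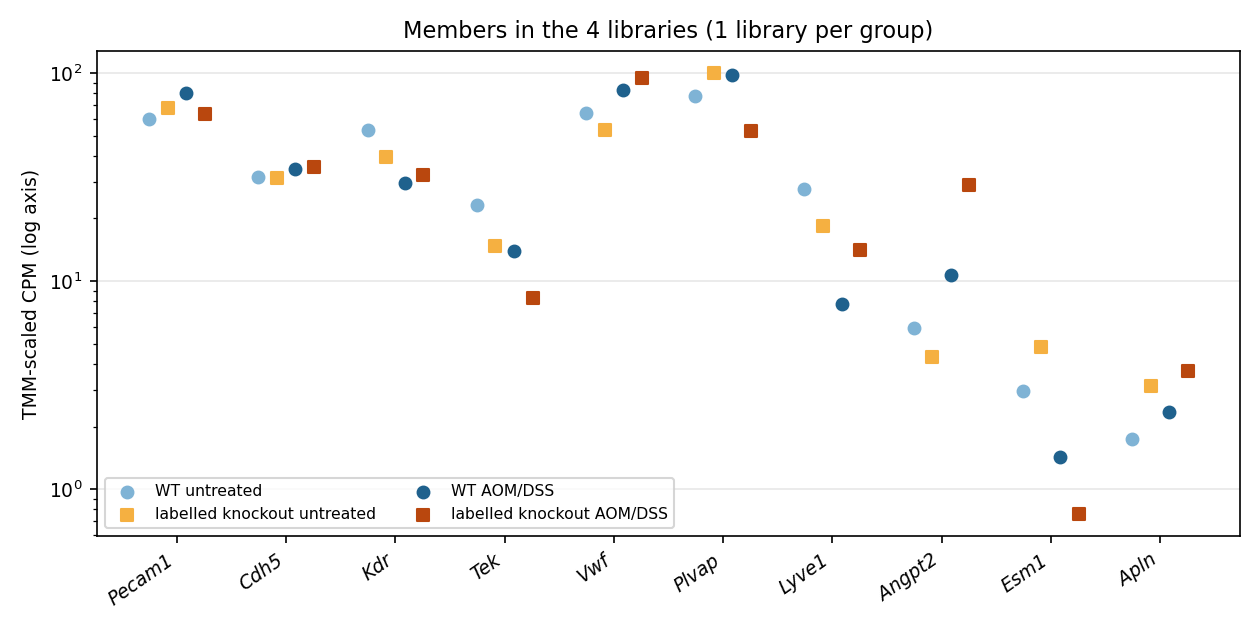
TMM-scaled CPM on a log axis for the 10 members (x axis); each point is 1 library, circles are WT and squares the libraries labelled knockout. Cdh5 sits between 31.2 and 35.3 CPM in all 4 libraries, while Angpt2 spans 4.33 to 29.1 CPM and Esm1 0.758 to 4.83 CPM.

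For each pair of libraries, a gene was called when its log2(CPM + 1) values differed by at least 1, that is 2-fold, and the higher library held 50 or more counts. In AOM/DSS against untreated WT, 0 of the 10 members were called higher and 1 lower (Lyve1), while 4.08% of 15356 genes were called higher and 3.88% lower. The same comparison between the libraries labelled knockout called 1 member higher (Angpt2) and 1 lower (Esm1), against 14.1% of 15900 genes higher and 15.9% lower. Between the untreated libraries, 0 members were called in either direction when labelled knockout was set against WT, and 4.46% of 15352 genes were higher and 3.37% lower. Between the AOM/DSS libraries 1 of 9 members with enough counts was called higher (Angpt2) and 0 lower, against 11.9% of 15779 genes higher and 12.4% lower. In no pair did the members' count stand far from these shares. The median log2 ratio of the members was 0.20, -0.18, -0.15 and 0.12 in these 4 pairs, beside 0.02, 0.03, -0.01 and 0.03 over all genes tested. The shares of all genes called in each pair are also the background for the gene lists below. Some genes below had both libraries of a treatment or label above or below both others. The share of all genes with such an order is not given.

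**Figure D2:**
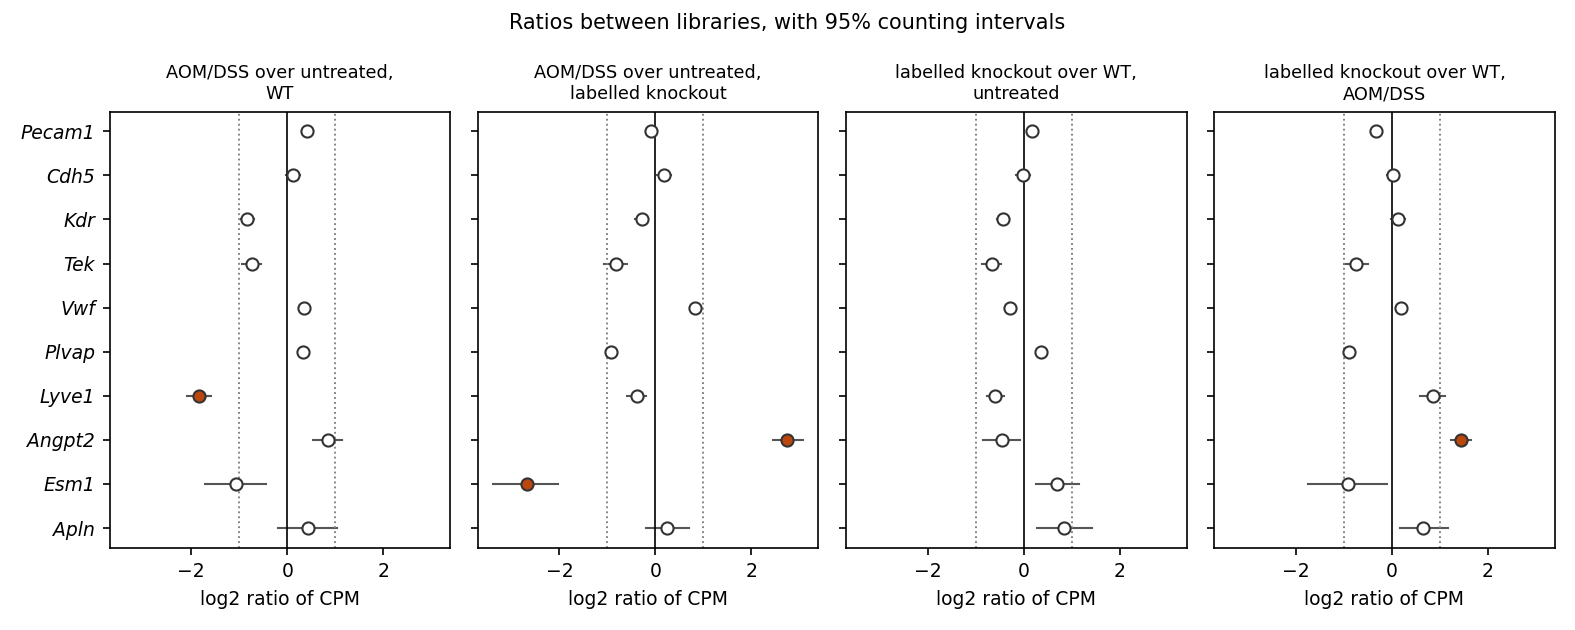
Log2 ratio of CPM without a pseudocount (x axis) for each member (y axis) in the 4 pairs of libraries, with bars for the 95% counting interval and dotted lines at 2-fold. Filled points are the called members: Lyve1 in the WT pair, Angpt2 and Esm1 in the labelled knockout pair and Angpt2 between the AOM/DSS libraries; Esm1 in the WT pair lies past 2-fold here and not on the log2(CPM + 1) scale of the calls.

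Pecam1 and Cdh5, the general markers of endothelium, differed by no more than 1.33-fold in any pair. Cdh5, which encodes VE-cadherin of the junctions between endothelial cells, stood at 31.7 CPM in untreated WT, 31.2 in the untreated library labelled knockout, 34.6 in WT AOM/DSS and 35.3 in the AOM/DSS library labelled knockout. All 4 libraries lay close together. In WT the AOM/DSS value was 1.09-fold the untreated one, with a 95% counting interval of 0.989 to 1.21, and in the labelled knockout pair 1.13-fold (1.03 to 1.24). Every fold here is a ratio of CPM, and every interval covers counting error alone and no spread between mice.

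Pecam1, the CD31 antigen of endothelium that platelets and some leukocytes also carry, stood at 60.3, 68.1, 79.8 and 63.8 CPM in the same order of libraries. WT AOM/DSS was the highest, 1.33-fold above untreated WT (1.24 to 1.42) and 1.25-fold above the AOM/DSS library labelled knockout (1.17 to 1.34). In the labelled knockout pair AOM/DSS was 1.07-fold lower (0.997 to 1.14), a direction that turned when libraries were scaled by their totals alone. The 6 genes whose pattern over the 4 libraries lay nearest to that of Cdh5, by Euclidean distance of centred log2(CPM + 1) among 12066 genes, were Cops7a (distance 0.019), Dpcd (0.021), Nxf1 (0.022), Cdk12 (0.023), Rtfdc1 (0.024) and B4galt7 (0.028). The other members and predicted genes (Gm and Rik symbols) were left out of the search. None of the 6 stands in one of the endothelial lists, and a pattern over 4 libraries this flat is shared by many genes.

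A list of 14 other genes of endothelium at large, such as Emcn, Erg, Cldn5, Esam and Robo4, served as a reference. In the WT pair and between the untreated libraries 0 of 14 passed the size rule, with medians of -0.08 and 0.03. Ecscr and Sox17 were called higher and Clec14a lower in the labelled knockout pair (median -0.18), and Ecscr alone was called between the AOM/DSS libraries (median -0.21). Ecscr, an endothelial surface protein, was at 10.1, 11.9, 15.5 and 129.9 CPM, and so supplied 4115 of the 10727 reference counts in the AOM/DSS library labelled knockout. Its neighbour 11.3 kb away on the same strand, Tmem173, the STING protein of innate immunity, chosen for mention after its values were seen, showed 7.74, 17.4, 23.9 and 162.6 CPM. Sox17, an endothelial transcription factor, was at 3.29, 3.18, 5.64 and 9.91 CPM, and Clec14a, a C-type lectin of endothelium, at 27.7, 35.7, 17.1 and 8.21 CPM. The summed reference was 275.7, 263.1, 263.1 and 338.6 CPM, and without Ecscr 265.6, 251.1, 247.6 and 208.7 CPM, so the library that is highest with Ecscr is lowest without it.

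Both growth factor receptors among the members were lower with AOM/DSS than without it under both labels, though neither passed the size rule. Kdr, which encodes VEGFR2, the main signalling receptor for VEGF-A on blood vessels, stood at 53.1 CPM in untreated WT, 39.5 in the untreated library labelled knockout, 29.8 in WT AOM/DSS and 32.5 in the AOM/DSS library labelled knockout. Untreated WT was the highest and the AOM/DSS libraries lay within 1.09-fold of each other (0.988 to 1.21). AOM/DSS was 1.78-fold lower in WT (1.62 to 1.96) and 1.22-fold lower in the labelled knockout pair (1.11 to 1.33). With library totals alone the log2 ratio of the second pair went from -0.28 to 0.01.

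Tek encodes TIE2, the angiopoietin receptor, and was at 23.3 CPM in untreated WT, 14.7 in the untreated library labelled knockout, 13.9 in WT AOM/DSS and 8.30 in the AOM/DSS library labelled knockout. It was the single member that was lower in all 4 pairs, both with AOM/DSS and under the knockout label, and that held under each of the scalings run. The folds were 1.67 lower with AOM/DSS in WT (1.45 to 1.93), 1.77 lower with AOM/DSS in the labelled knockout pair (1.50 to 2.10), 1.58 lower under the knockout label than in WT without treatment (1.38 to 1.82) and 1.68 lower in the labelled knockout than in the WT AOM/DSS library (1.42 to 1.99). The pairs share libraries and are not independent. Tie1, the partner receptor of TIE2, was flatter at 29.9, 27.0, 28.0 and 22.0 CPM.

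RefSeq promoters (250 bases before to 50 after the annotated start, GRCm38.p6) were matched for 4 of the 10 members, and those of the 2 receptors are shown because both receptors were lower in the AOM/DSS libraries. Capitals mark GGAA or its complement TTCC, the core that ETS factors bind, a transcription factor family that includes regulators of endothelial genes. Kdr lies at chr5:75932827-75978458 on the minus strand and its promoter at chr5:75978406-75978705, while Tek lies at chr4:94739289-94874976 on the plus strand with its promoter at chr4:94739039-94739338.
Kdr: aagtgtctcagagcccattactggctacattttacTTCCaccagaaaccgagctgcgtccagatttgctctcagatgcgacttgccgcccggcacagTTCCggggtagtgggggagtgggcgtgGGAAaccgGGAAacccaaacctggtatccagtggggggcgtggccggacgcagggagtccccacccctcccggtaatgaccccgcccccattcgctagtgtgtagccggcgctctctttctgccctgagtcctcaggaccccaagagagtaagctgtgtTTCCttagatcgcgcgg
Tek: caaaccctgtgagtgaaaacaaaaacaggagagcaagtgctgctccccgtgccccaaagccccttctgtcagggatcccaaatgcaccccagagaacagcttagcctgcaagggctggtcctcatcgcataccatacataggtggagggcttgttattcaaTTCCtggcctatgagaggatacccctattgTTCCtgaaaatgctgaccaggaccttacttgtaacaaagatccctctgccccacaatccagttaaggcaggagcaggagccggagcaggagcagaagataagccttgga
Searched on both strands, the Kdr promoter held 5 matches to GGAA and 2 to GCGTG, a core of hypoxia response elements, and the Tek promoter held 2 matches to GGAA and 0 to GCGTG. Of 32851 mouse promoters of this length, 96.0% held GGAA and 32.4% held GCGTG, so most promoters hold the first and the matches describe the sequence alone. Neither held CAGGAAG (a longer match that contains GGAA, in 13.3% of promoters), ACGTG (19.6%) or TATAAA (13.6%).

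Among the other genes of the VEGF pathway all calls were lower. Over all genes 3.88% were called lower in the WT pair and 15.9% in the labelled knockout pair. Of the 9 VEGF ligands and receptors other than Kdr, 0 were called higher in any pair. Flt4 and Nrp2 were called lower among the 8 tested in the WT pair (median -0.52) and Nrp2 among the 9 in the labelled knockout pair (median -0.36), and none was called between untreated libraries (8 tested, median -0.25) or between AOM/DSS libraries (9 tested, median -0.31). Nrp2, a co-receptor for VEGF and semaphorins, was at 173.8, 140.8, 85.4 and 66.0 CPM, with both AOM/DSS libraries below both untreated ones. Vegfa, the ligand of VEGFR2, was at 105.9, 103.4, 109.5 and 75.8 CPM, 1.03-fold higher with AOM/DSS in WT (0.978 to 1.09) and 1.37-fold lower in the labelled knockout pair (1.29 to 1.45). Vegfb was at 20.5, 18.8, 14.7 and 8.93 CPM. Some uncalled genes lay past 2-fold as a ratio of CPM. Pgf was 2.02-fold higher in the labelled knockout pair (1.38 to 3.02). Between AOM/DSS libraries it was 2.21-fold higher in the one labelled knockout (1.49 to 3.35). Vegfc was 2.115-fold lower in the WT pair and 2.24-fold lower in the labelled knockout pair, where Vegfb was 2.10-fold lower.

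Angpt2, the ligand that competes with ANGPT1 at TIE2, spanned the widest range of the 10 members. It had 150 counts in untreated WT, 94 in the untreated library labelled knockout, 233 in WT AOM/DSS and 923 in the AOM/DSS library labelled knockout, or 5.95, 4.33, 10.7 and 29.1 CPM. Both AOM/DSS libraries lay above both untreated ones, and the one labelled knockout was highest. With AOM/DSS it was 1.80-fold higher in WT (1.46 to 2.22) and 6.73-fold higher in the labelled knockout pair (5.44 to 8.42). Between the AOM/DSS libraries it was 2.73-fold higher in the one labelled knockout (2.36 to 3.16), and between the untreated libraries 1.38-fold lower (1.06 to 1.80). The gene lies at chr8:18690263-18741562 on the minus strand and overlaps the span of Mcph1, with no exon in common.

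Because Tek was low where Angpt2 was high, the ratio of ligand to receptor counts spread further than either gene. Angpt2 counts per Tek count were 0.256 in untreated WT, 0.294 in the untreated library labelled knockout, 0.766 in WT AOM/DSS and 3.51 in the AOM/DSS library labelled knockout. The untreated libraries differed by 1.15-fold (0.848 to 1.55). With AOM/DSS the ratio was 2.999-fold higher in WT (2.32 to 3.87) and 11.9-fold higher in the labelled knockout pair (9.07 to 15.8), and it was 4.58-fold higher in the labelled knockout than in the WT AOM/DSS library (3.66 to 5.73). A ratio of counts within a library does not depend on how libraries are scaled. Per kb of exon, Tek exceeded Angpt2 in untreated WT (4.94 against 1.61 CPM per kb), the untreated library labelled knockout (3.13 against 1.17) and, narrowly, WT AOM/DSS (2.96 against 2.90), while in the AOM/DSS library labelled knockout Angpt2 stood at 7.90 and Tek at 1.76. This ratio was chosen after the values were seen.

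**Figure D3:**
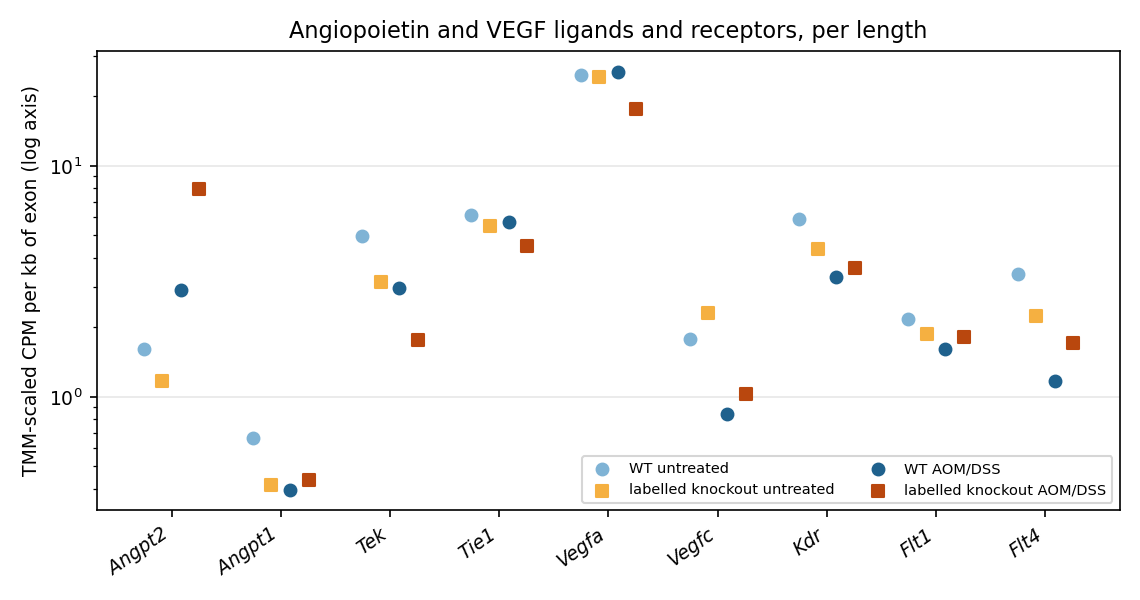
TMM-scaled CPM per kb of exon on a log axis for angiopoietin and VEGF ligands and receptors (x axis); each point is 1 library. Angpt2 in the AOM/DSS library labelled knockout is at 7.90 CPM per kb and Tek at 1.76, the reverse of their order in untreated WT.

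Angpt1, the stabilising ligand of TIE2 made by pericytes and other stromal cells, stood at 3.45, 2.16, 2.06 and 2.27 CPM (45 to 87 counts). Angpt2 counts per Angpt1 count were 1.72, 2.00, 5.18 and 12.8 in the same order. Of the 7 listed partners found in the table, 1 was called higher and 1 lower among 6 tested in the WT pair (median -0.27), 2 higher and 1 lower of 7 in the labelled knockout pair (median 0.00), 0 higher and 1 lower of 6 between untreated libraries (median -0.22), and 2 higher and 2 lower of 7 between AOM/DSS libraries (median 0.01). Angpt4, a further angiopoietin, was at 0.476, 0.690, 0.963 and 4.04 CPM, its 128 counts in the AOM/DSS library labelled knockout standing against 12 to 21 elsewhere. Svep1, an extracellular matrix protein with a part in lymphatic growth, was at 81.3, 74.9, 24.8 and 75.0 CPM, 3.28-fold lower with AOM/DSS in WT (2.98 to 3.61) and 1.00-fold in the labelled knockout pair (0.939 to 1.07). Angptl4, an inhibitor of lipoprotein lipase, was at 8.93, 3.54, 26.1 and 12.5 CPM and was called higher with AOM/DSS under both labels.

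Apln encodes apelin, a peptide ligand that sprouting endothelium makes. It was the least abundant member per length, with 44 counts in untreated WT, 68 in the untreated library labelled knockout, 51 in WT AOM/DSS and 117 in the AOM/DSS library labelled knockout, or 1.75, 3.13, 2.34 and 3.69 CPM. Both libraries labelled knockout lay above both WT libraries, by 1.79-fold untreated (1.21 to 2.68) and 1.58-fold with AOM/DSS (1.13 to 2.24). The AOM/DSS and untreated libraries of a label differed by 1.34-fold in WT (0.877 to 2.05) and 1.18-fold in the labelled knockout pair (0.868 to 1.62), which at these counts was not detectable. Aplnr, the apelin receptor, was at 7.02, 5.57, 7.38 and 2.15 CPM, 2.60-fold lower with AOM/DSS in the labelled knockout pair (1.91 to 3.55) and 3.44-fold lower in the labelled knockout than in the WT AOM/DSS library (2.58 to 4.64).

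Esm1 encodes endocan, a proteoglycan released by the tip cells that lead a vascular sprout. It had 75 counts in untreated WT, 105 in the untreated library labelled knockout, 31 in WT AOM/DSS and 24 in the AOM/DSS library labelled knockout, or 2.98, 4.83, 1.42 and 0.758 CPM. Both AOM/DSS libraries lay below both untreated ones. Esm1 was 2.09-fold lower with AOM/DSS in WT (1.36 to 3.29), which did not pass the size rule on the log2(CPM + 1) scale, and 6.38-fold lower in the labelled knockout pair (4.06 to 10.4). It was 1.62-fold higher in the labelled knockout than in the WT untreated library (1.20 to 2.22) and 1.88-fold lower between the AOM/DSS libraries (1.07 to 3.34), where both had under 50 counts. Angpt2 and Esm1, both known as genes of sprouting vessels, therefore lay on opposite sides in both AOM/DSS comparisons.

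The promoter of Esm1 is shown as that of the member with the largest called lower value, and that of Apln beside it as another sprouting gene. Esm1 lies at chr13:113209659-113218098 on the plus strand and overlaps the span of Gzmk without a shared exon, and its promoter is chr13:113209409-113209708. Apln lies at chrX:48025146-48034853 on the minus strand, with its promoter at chrX:48034804-48035103. Capitals again mark GGAA or TTCC.
Esm1: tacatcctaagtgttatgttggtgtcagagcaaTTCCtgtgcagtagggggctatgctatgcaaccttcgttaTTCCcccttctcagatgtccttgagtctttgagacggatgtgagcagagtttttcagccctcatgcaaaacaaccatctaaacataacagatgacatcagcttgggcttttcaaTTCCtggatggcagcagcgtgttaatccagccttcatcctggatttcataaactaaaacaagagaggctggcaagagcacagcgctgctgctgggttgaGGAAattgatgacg
Apln: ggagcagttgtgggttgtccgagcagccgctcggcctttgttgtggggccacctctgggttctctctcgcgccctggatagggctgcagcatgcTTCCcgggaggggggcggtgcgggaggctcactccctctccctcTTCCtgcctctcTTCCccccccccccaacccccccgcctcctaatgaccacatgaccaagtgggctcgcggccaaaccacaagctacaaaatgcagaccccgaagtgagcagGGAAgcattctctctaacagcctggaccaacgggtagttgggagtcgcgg
Each held 4 matches to GGAA. Esm1 held 1 match to GCGTG and Apln 0, while Apln held 1 match to the longer CAGGAAG and Esm1 0. Neither held ACGTG or TATAAA.

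Of the genes that reached 50 counts in 1 or more libraries, 14401 remained once members and predicted genes were left out. Among them the 6 nearest to Esm1 in pattern were Eppk1 (distance 0.069), Crip1 (0.093), Cpm (0.104), Igsf9 (0.144), Gprin3 (0.148) and Iyd (0.168). None is in an endothelial list. Eppk1, an epithelial plakin, was at 180.9, 249.8, 104.1 and 77.0 CPM and had the same order of libraries as Esm1. The Esm1 pattern rests on 24 to 105 counts a library.

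A list of 10 other genes of tip cells and sprouting gave at most 2 calls in a pair. In the WT pair 2 of 10 were called higher (Cxcr4 and Adm) and 0 lower, with a median of -0.11. Over all genes 4.08% were called higher and 3.88% lower there. In the labelled knockout pair 0 were higher and 1 lower (Unc5b), also with a median of -0.11, beside 14.1% and 15.9% of all genes. The shares were 4.46% and 3.37% between untreated libraries, and 11.9% and 12.4% between AOM/DSS libraries. Cxcr4 was called higher in the labelled knockout than in the WT untreated library (median of the list 0.00), and Unc5b and Mcam lower between the AOM/DSS libraries (median -0.06). Cxcr4, a chemokine receptor of tip cells and of many leukocytes, was at 2.30, 7.64, 7.06 and 7.04 CPM, so untreated WT stood below the others. Adm, the vasoactive peptide adrenomedullin, was at 1.94, 3.96, 6.01 and 8.46 CPM. Unc5b, a netrin receptor of tip cells and of other cell types, was at 131.1, 136.4, 124.4 and 47.8 CPM.

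Vwf and Plvap, both markers of blood vessel endothelium, went separate ways in the AOM/DSS library labelled knockout. Vwf encodes von Willebrand factor, the clotting protein stored in endothelium and platelets, and stood at 64.6 CPM in untreated WT, 53.3 in the untreated library labelled knockout, 82.7 in WT AOM/DSS and 94.3 in the AOM/DSS library labelled knockout. Both AOM/DSS libraries lay above both untreated ones, by 1.28-fold in WT (1.20 to 1.37) and 1.77-fold in the labelled knockout pair (1.65 to 1.90). A list of 6 platelet and megakaryocyte genes summed to 14.6, 12.0, 18.2 and 11.9 CPM, with Ppbp, Gp9 or Gp6 at 0 in some libraries. Within the list Ppbp (0.159, 0, 0.275 and 2.81 CPM) and Itga2b (1.98, 2.07, 2.02 and 3.31 CPM) were highest in the library where Vwf was highest. Pf4 (8.81, 7.13, 6.33 and 4.5 CPM) and Gp1bb (3.53, 1.66, 9.54 and 1.14 CPM) were lowest in that library. The part of platelets in the Vwf values was not tested. In the WT pair 1 of 3 tested was called higher (Gp1bb), and in the labelled knockout pair 1 of 3 (Ppbp).

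Plvap encodes the diaphragm protein of fenestrated capillaries and venules, which are common in gut mucosa. It was at 77.9 CPM in untreated WT, 100.3 in the untreated library labelled knockout, 97.4 in WT AOM/DSS and 52.8 in the AOM/DSS library labelled knockout. The last stood below the other 3. With AOM/DSS it was 1.25-fold higher in WT (1.18 to 1.33) and 1.90-fold lower in the labelled knockout pair (1.78 to 2.03), and between the AOM/DSS libraries it was 1.85-fold lower in the one labelled knockout (1.73 to 1.97). The untreated library labelled knockout was 1.29-fold above untreated WT (1.21 to 1.37).

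Of the adhesion and inflammation genes of venules, Selp, Vcam1, Icam1 and Lrg1 were called higher with AOM/DSS under both labels. In the WT pair 7 of 8 were called higher (Sele, Selp, Vcam1, Icam1, Darc, Madcam1 and Lrg1) and 0 lower, with a median of 1.58. Of all genes tested in that pair, 4.08% were called higher and 3.88% lower. In the labelled knockout pair 4 of 7 were higher (Selp, Vcam1, Icam1 and Lrg1) and 1 lower (Nr2f2, a vein transcription factor), with a median of 2.37. There the shares over all genes were larger, 14.1% higher and 15.9% lower. Between the untreated libraries 0 of 7 were called (median 0.34), and between the AOM/DSS libraries 3 of 8 were higher (Vcam1, Icam1 and Lrg1) and 2 lower (Sele and Darc), with a median of -0.57. Over all genes 4.46% were higher and 3.37% lower between untreated libraries, and 11.9% and 12.4% between AOM/DSS libraries.

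Selp, P-selectin of endothelium and platelets, was at 4.21, 1.66, 31.9 and 19.9 CPM, 7.59-fold higher with AOM/DSS in WT (6.18 to 9.40) and 12.0-fold higher in the labelled knockout pair (8.59 to 17.3). Lrg1, a secreted glycoprotein that acts on vessels and is also made by neutrophils and epithelium, was at 6.15, 3.68, 45.6 and 94.4 CPM, 7.41-fold (6.25 to 8.84) and 25.6-fold higher (20.5 to 32.4). Vcam1, which binds leukocyte integrins and is also made by macrophages and stroma, was at 9.48, 12.2, 27.2 and 73.2 CPM. In these genes both AOM/DSS values lay above both untreated ones. The share of all genes with such an order is not given here. The leukocyte sums given above were higher in the AOM/DSS libraries too, and their part in these values was not tested.

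**Figure D4:**
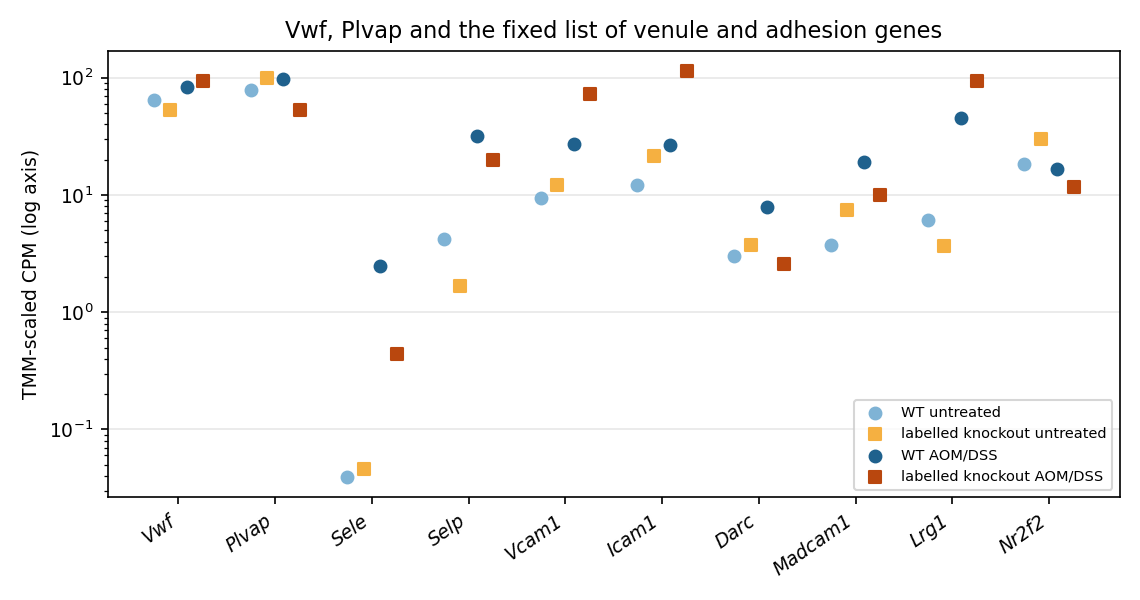
TMM-scaled CPM on a log axis for Vwf, Plvap and 8 genes of venules and inflamed endothelium (x axis); each point is 1 library. Selp, Vcam1 and Lrg1 are higher in both AOM/DSS libraries than in both untreated ones, while Plvap is lowest, at 52.8 CPM, in the AOM/DSS library labelled knockout.

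Lyve1 encodes a hyaluronan receptor of lymphatic vessels that some tissue macrophages share. It had 700 counts in untreated WT, 401 in the untreated library labelled knockout, 170 in WT AOM/DSS and 446 in the AOM/DSS library labelled knockout, or 27.8, 18.5, 7.80 and 14.1 CPM. WT AOM/DSS was the lowest and untreated WT the highest. Lyve1 was 3.56-fold lower with AOM/DSS in WT (3.01 to 4.24), the call in that pair, and 1.31-fold lower in the labelled knockout pair (1.14 to 1.50). The untreated library labelled knockout was 1.51-fold below untreated WT (1.33 to 1.71), and the AOM/DSS one was 1.81-fold above WT AOM/DSS (1.51 to 2.17). The gene lies at chr7:110850607-110863239 on the minus strand.

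Of the lymphatic list, 3 of 6 tested were called lower in the WT pair (Flt4, Mmrn1 and Reln) and 0 higher, with a median of -1.02. Over all genes 3.88% were called lower and 4.08% higher in that pair. Flt4, the VEGF-C receptor VEGFR3, was at 28.0, 18.4, 9.63 and 14.1 CPM, 2.91-fold lower with AOM/DSS in WT (2.49 to 3.41). Mmrn1, a multimerin of lymphatic endothelium and platelets, was at 32.5, 19.7, 6.92 and 16.6 CPM, 4.70-fold lower (3.95 to 5.63), and Reln, the matrix protein reelin, at 25.4, 13.3, 6.51 and 12.9 CPM, 3.89-fold lower (3.24 to 4.70). All 3 had the same order of libraries as Lyve1. Their distances from the Lyve1 pattern were 0.234 for Flt4, 0.269 for Reln and 0.304 for Mmrn1, which ranked 5, 6 and 11 among 12066 genes. The nearest genes were Ighv9-3 (0.116, an immunoglobulin segment whose reads may be divided among copies), Pdgfra (0.161, a fibroblast receptor), Arhgap28 (0.177) and Fbn1 (0.213, a matrix protein). These distances were computed after the levels were seen, and the other members and predicted genes were left out of the search.

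Other lymphatic genes did not share the pattern. Pdpn, podoplanin, which fibroblasts also make, stayed between 12.0 and 14.7 CPM. Ccl21a, a chemokine of lymphatics with near-identical copies among which reads can be divided, was at 19.7, 22.6, 28.7 and 12.0 CPM. Prox1, the transcription factor that sets lymphatic identity and that epithelial cells can also express, was at 13.8, 4.37, 8.76 and 368.6 CPM and lay at rank 12049 of 12066 from Lyve1. Prox1 made up most of the list's sum in the AOM/DSS library labelled knockout (439.3 CPM with it, 70.7 CPM over the other 6 genes), and without it the sums were 121.0, 88.2, 65.1 and 70.7 CPM. In the labelled knockout pair 1 of 6 was called higher (Prox1) and 0 lower (median -0.13), between untreated libraries 0 higher and 1 lower (Prox1, median -0.64), and between AOM/DSS libraries 2 higher (Prox1 and Mmrn1) and 1 lower (Ccl21a), with a median of 0.70. The shares of all genes called higher and lower in these pairs were 14.1% and 15.9%, 4.46% and 3.37%, and 11.9% and 12.4%.

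**Figure D5:**
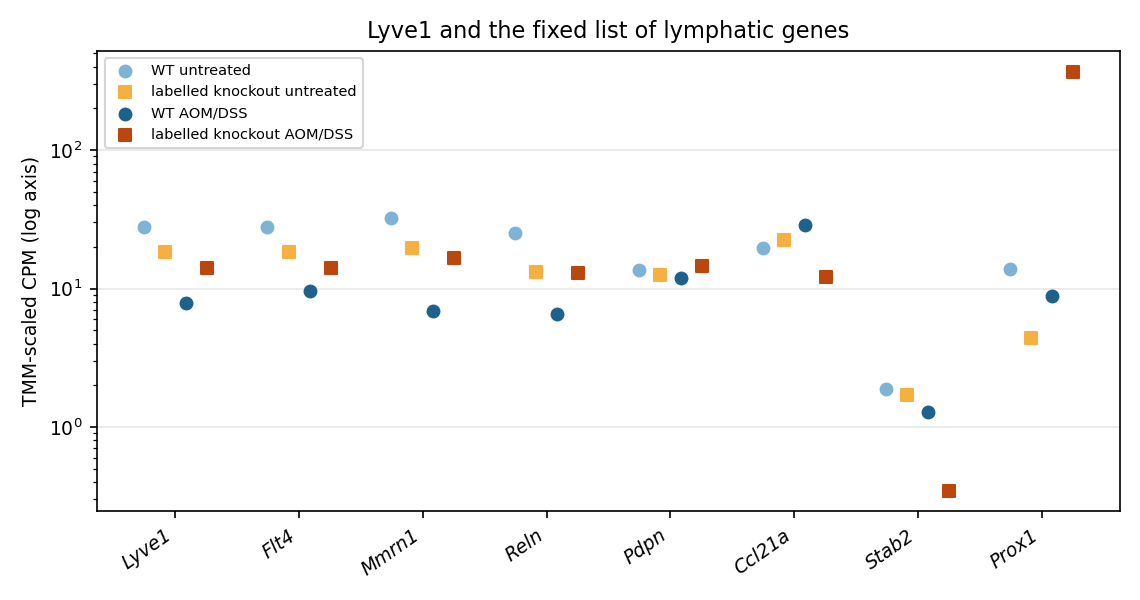
TMM-scaled CPM on a log axis for Lyve1 and 7 lymphatic genes (x axis); each point is 1 library. Lyve1, Flt4, Mmrn1 and Reln are lowest in WT AOM/DSS, whereas Prox1 reaches 368.6 CPM in the AOM/DSS library labelled knockout.

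Resident macrophages can carry Lyve1 as well, and their list was lower in WT AOM/DSS too. The 6 genes summed to 87.0 CPM in untreated WT, 46.9 in the untreated library labelled knockout, 33.4 in WT AOM/DSS and 71.8 in the AOM/DSS library labelled knockout, with Cd209f at 0 in the last. In the WT pair 3.88% of all genes were called lower and 4.08% higher. Of these macrophage genes, 4 of 5 tested were called lower there (Mrc1, Folr2, Cd209f and Emr1) and 0 higher, with a median of -1.41. Their part in the Lyve1 values was not tested. In the labelled knockout pair 1 of 4 was higher (Emr1) and 2 lower (Cd163 and Folr2), between untreated libraries 0 of 5 were higher and 2 lower (Cd163 and Cd209f), and between AOM/DSS libraries 2 of 3 were higher (Mrc1 and Emr1) and 1 lower (Cd163). Over all genes the shares higher and lower in these pairs were 14.1% and 15.9%, 4.46% and 3.37%, and 11.9% and 12.4%.

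Set per pan-endothelial count in place of the library total, the called members kept their direction. Per 1000 counts of the 14 reference genes, Angpt2 had 21.6 counts in untreated WT, 16.5 in the untreated library labelled knockout, 40.6 in WT AOM/DSS and 86.0 in the AOM/DSS library labelled knockout, 5.23-fold higher with AOM/DSS in the labelled knockout pair (4.22 to 6.56). Left out after its values were seen, Ecscr moved that fold to 8.10 (6.53 to 10.2) and the fold between AOM/DSS libraries from 2.12 to 3.24. Esm1 per reference count was 8.21-fold lower in the labelled knockout pair (5.22 to 13.4), or 5.30-fold without Ecscr (3.37 to 8.65). Lyve1 was 3.40-fold lower in the WT pair (2.86 to 4.06), or 3.32-fold (2.79 to 3.97).

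Members closer to the reference depended on Ecscr. In the labelled knockout pair Pecam1 per reference count went from 1.37-fold lower to 1.13-fold higher without Ecscr, and Cdh5 from 1.14-fold lower to 1.36-fold higher. Kdr went from 1.57-fold to 1.01-fold lower, Plvap from 2.45-fold to 1.58-fold lower, Tek from 2.28-fold to 1.48-fold lower, and Vwf from 1.37-fold to 2.13-fold higher. In the WT pair, where Ecscr was within 1.53-fold, Kdr was 1.70-fold lower with it and 1.66-fold lower without.

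The AOM/DSS response, as a log2 ratio, was compared between the labels for each member. The labelled knockout minus WT difference was 1.75 for Angpt2, 1.34 for Lyve1, 0.54 for Kdr and 0.46 for Vwf, and -1.23 for Plvap, -1.02 for Esm1 and -0.49 for Pecam1. It was 0.04 for Cdh5, -0.06 for Tek and -0.10 for Apln, and the sign of the last 2 turned with the scaling. With 1 library per group these differences could not be tested.

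An additive model of treatment and genotype label over all 4 libraries gave the single test that the design allows, and no member passed it. The interaction of the terms takes up its 1 residual degree of freedom. edgeR's quasi-likelihood test with Benjamini-Hochberg adjustment called 0 of 18973 genes for treatment and 0 of 18973 for the label, each 0% of the genes tested, while 1148 and 746 genes had an unadjusted p under 0.05. DESeq2 called 336 of 18314 genes for treatment and 255 of 19474 for the label, 0 of them members. With so few genes called, this says nothing particular to the members. For treatment the edgeR log2 estimates were 1.79 for Angpt2 (adjusted p = 0.794), -1.87 for Esm1 (adjusted p = 0.821) and -1.12 for Lyve1 (adjusted p = 0.871). Angpt2 was higher and Esm1 and Lyve1 lower with AOM/DSS under both labels. DESeq2 gave Angpt2 an adjusted p of 0.179. For the label, edgeR's adjusted p was 1 for all 10 members.

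Genes around the vessel members were counted in 4 more lists. Over all genes tested, 4.08% were called higher and 3.88% lower in the WT pair, and 14.1% and 15.9% in the labelled knockout pair. Between untreated libraries these shares were 4.46% and 3.37%, and between AOM/DSS libraries 11.9% and 12.4%. Single calls in the labelled knockout pair and between AOM/DSS libraries thus stand against a larger background. Of 6 inhibitors of angiogenesis, 1 was called higher (Adamts1) and 1 lower (Thbs2) in the WT pair (median 0.50), 4 higher (Thbs1, Thbs2, Col18a1 and Adamts1) and 0 lower in the labelled knockout pair (median 1.48), 0 between untreated libraries (median -0.55) and 1 higher (Thbs2) between AOM/DSS libraries (median 0.16). Thbs1, thrombospondin of platelets and stroma, was at 120.1, 62.1, 182.9 and 343.2 CPM, and Thbs2 at 38.2, 26.7, 15.4 and 88.6 CPM. Adamts1, a matrix protease that binds VEGF, was at 14.7, 9.11, 33.2 and 36.3 CPM.

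Pericytes wrap small vessels and supply ANGPT1. Of 6 pericyte genes tested, 2 were called higher in the WT pair (Kcnj8 and Abcc9, median -0.28), 1 lower in the labelled knockout pair (Cspg4, median -0.46), 2 lower between untreated libraries (Rgs5 and Kcnj8, median -0.66) and 4 lower between AOM/DSS libraries (Rgs5, Cspg4, Kcnj8 and Abcc9, median -1.82). Cspg4, the NG2 proteoglycan, was at 50.7, 40.1, 37.6 and 6.94 CPM, and Rgs5 at 191.8, 79.5, 173.0 and 40.2 CPM. Others of the list differed less, with Pdgfrb at 67.0, 55.9, 48.8 and 47.9 CPM and Notch3 at 34.4, 25.8, 24.1 and 19.0 CPM. The summed list was at 458.3, 260.5, 532.5 and 167.7 CPM.

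Notch receptors and ligands steer the choice between tip and stalk cells. Of 7 tested, 0 were called in the WT pair (median -0.10) or between untreated libraries (median 0.06), Notch4 was higher in the labelled knockout pair (median 0.02), and Notch1 and Notch4 were higher between AOM/DSS libraries (median 0.04). Notch4, a receptor mostly of endothelium, was at 12.1, 16.9, 16.2 and 36.0 CPM, and Notch1, which epithelium also uses, at 84.3, 90.6, 61.4 and 152.8 CPM. Nrarp and Hes1 of the same list went the other way, lowest in the AOM/DSS library labelled knockout and not called in any pair. Nrarp was at 26.62, 26.93, 22.65 and 13.45 CPM, and Hes1 at 45.98, 46.44, 29.85 and 26.55 CPM. Of the arterial genes, 0 of 6 were called in the WT pair (median 0.25) and between untreated libraries (median 0.03). Efnb2, the arterial ligand ephrin-B2, which epithelium also makes, was the 1 of 5 called lower in the labelled knockout pair (median -0.24) and between AOM/DSS libraries (median -0.64), at 76.4, 99.2, 82.2 and 37.5 CPM.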

How the data were processed

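Per the labels' protocols, TRIzol was used to extract RNA from 4 mouse colon samples, and libraries followed the RNA-seq kit v2 of the Ion Proton sequencer. The authors deposited whole-number read counts per gene symbol without normalization. Per the submitters' processing notes the build was GRCm38 (mm10). The aligner, counter, annotation and strand handling were not given in the sources used here. If strand was ignored, reads of overlapping genes on opposite strands cannot be told apart. The table held 0 columns of other samples.

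The members and the 17 gene lists were chosen with earlier results of these data known. Groups follow the labels. Counts were scaled to CPM with TMM (edgeR 4.0.16, R 4.3.3; factors 0.992, 0.931, 0.947 and 1.14 in the order of the libraries). A pair was called at a 2-fold difference of log2(CPM + 1), which understates differences of low genes, if the higher library had 50 counts or more. Folds are ratios of CPM with exact 95% Clopper-Pearson intervals (scipy 1.17.1), conditional on the sum of both counts and cover counting error only, since PCR copies cannot be recognised. Pair contrasts have no p-value, since there is 1 library per group. The additive model used filterByExpr and edgeR's quasi-likelihood test at an adjusted p of 0.05, with DESeq2 1.42.0 as an alternative. Its residual degree of freedom takes the interaction as spread between mice. Exon lengths and positions come from GENCODE release 21 (GRCm38), promoters from RefSeq.

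Named genes were the 10 members, Card9, up to 3 genes per list with the largest absolute log2 ratio and at least 50 counts, and the 6 nearest to Cdh5 and Esm1 in pattern; others named were chosen after their values were seen. Some genes that the rule names stand only in their lists' counts and sums, and 1 list is not reported here as a whole. Alternatives were 3 other scalings, pseudocounts of 0.5 and 5 CPM, a minimum of 200 counts or none, thinned libraries, genes above 1% of a library left out, and other reference genes.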

Additional observations from a re-analysis of the deposited data

Results flagged for a closer look

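The AOM/DSS response of Plvap had opposite signs under the 2 labels, higher in WT (log2 0.32) and lower in the labelled knockout pair (-0.92), a difference of -1.23. Over all 16383 genes that reached 50 counts in 1 or more libraries, 23.6% had such opposite responses, with both counting intervals of the fold apart from 1. The difference between labels also had opposite signs in untreated and AOM/DSS libraries for 6 of the 10 members by the same rule, which 29.7% of all these genes met. Labelled knockout minus WT, the AOM/DSS value minus the untreated one was 1.75 for Angpt2, 1.34 for Lyve1 and 0.46 for Vwf, each lower untreated and higher with AOM/DSS. It was -1.23 for Plvap, -1.02 for Esm1 and -0.49 for Pecam1, each higher untreated and lower with AOM/DSS. These differences were not tested, since each rests on 4 single libraries. All of them use the AOM/DSS library labelled knockout, which stood apart from the others over all genes, and its part in them was not tested.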

How the results depend on the processing

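Each member's log2 ratio was recomputed under every alternative, and no called member changed sign: Angpt2 stayed between 1.87 and 2.77 in the labelled knockout pair and between 1.12 and 1.63 between AOM/DSS libraries, Lyve1 between -1.77 and -1.36 in the WT pair and Esm1 between -2.08 and -0.77 in the labelled knockout pair. Esm1 lost its call there with a pseudocount of 5 CPM or at least 200 counts (0 members lower). With library totals alone the median of all genes was 0.30 in the labelled knockout pair and 0.28 between AOM/DSS libraries, and called members higher were 2 in each, adding Vwf (1.10) and Lyve1 (1.03). The share of called genes that were higher went from 47.0% to 64.1% and from 48.9% to 64.2% in these pairs. The share of all genes tested that were called higher with library totals is not given here. The members' counts at that setting therefore have no background beside them.

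With a pseudocount of 5 CPM, genes called higher and lower were 314 and 268 in the WT pair (627 and 596 at 1 CPM), 1408 and 1587 in the labelled knockout pair (2245 and 2532), 372 and 248 between untreated libraries (685 and 517) and 1132 and 1235 between AOM/DSS libraries (1870 and 1952). At least 200 counts left 409 higher in the WT pair. With DESeq2 the additive model called 336 of 18314 genes for treatment and 255 of 19474 for the label. It called 23 and 15 of 18973 genes with library totals and 81 and 62 of 29913 without a filter. The main fit called 0 and 0 of 18973. Members called were 0 in each, which says nothing particular to them with so few genes called. The cause of the unlike numbers of genes called was not tested. No paired analysis was possible because each group holds 1 library. Depth limits Apln and Esm1 most. Apln had 44 to 117 counts, and its AOM/DSS intervals include 1 under both labels. Esm1 had 24 to 105 counts, too few in the AOM/DSS libraries for a call between them.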
